A study of Mus musculus with 2 samples.

Results

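H19, Cdkn1c, Dlk1, Meg3, Peg3, Plagl1, Grb10, Mest, Ndn and Zim1 are genes that most mouse tissues read from a single parental allele and that are known for their part in growth. They were taken by symbol from the gene list of 2 single-cell libraries, which holds 31253 genes in each library, and all 10 were found in both. The libraries came from the periosteum, the cell layer around bone, of femurs and tibias of mice at 8 weeks. The control library is from Prx1 Cre; Ai9/+ mice, in which Cre driven by Prx1, a gene of limb mesenchyme, switches on the red Ai9 reporter. The Piezo1 fl/fl library is from Prx1 Cre; Ai9/+; Piezo1 fl/fl mice, which carry the same Cre and reporter and lose Piezo1, an ion channel opened by mechanical force, wherever that Cre has acted. Reporter-positive cells were sorted before capture, and the labels give 1 library per genotype and no number of mice, so no difference between genotypes has a replicate check and none is tested. Genotype and library cannot be told apart.

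Imprinting marks one parental copy of a gene, usually by DNA methylation of a control region shared by a cluster of neighbours, and silences that copy. H19 and Cdkn1c are read from the maternal copy and restrain growth. Dlk1, Peg3, Plagl1, Mest and Ndn are read from the paternal copy, and Meg3 and Zim1 from the maternal copy. Unique molecular identifiers (UMIs) count captured transcripts of both copies together, so none of the values below shows which copy was read or whether imprinting was kept. In the GRCm38 build the members lie on 5 chromosomes: H19 at 7:142575529-142578143, Cdkn1c at 7:143458339-143461050, Peg3 at 7:6703892-6730431, Zim1 at 7:6671269-6696450, Ndn at 7:62346569-62350262, Mest at 6:30723547-30748465, Plagl1 at 10:13060504-13131694, Grb10 at 11:11930508-12038683, Dlk1 at 12:109452823-109463336 and Meg3 at 12:109541001-109571726. H19 and Meg3 are annotated as long intergenic noncoding RNAs and the other 8 as protein coding.

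The control library held 4418 retained cells with a median of 4812.5 UMIs, and the Piezo1 fl/fl library 5084 cells with a median of 4593. The number of barcodes present in both libraries was 50. Piezo1 itself was at 5.18 CPM, its UMIs per 1000000 UMIs, over the retained control cells (interval 4.33 to 6.14, 132 UMIs). Over the retained Piezo1 fl/fl cells it was at 2.41 CPM (1.88 to 3.06, 69 UMIs). The deleted exons are not given in the sources used here, so 3′ tags may not see them. Intervals here and below are 95% intervals that cover counting error only. Cells were clustered in each library without the members or the other listed genes, so that the members' levels had no part in forming the types. In the control library a cluster of 809 cells was SSPC-1-like by its markers, and its top 10 genes held Egfl6, Dio2 and Col8a1. In the Piezo1 fl/fl library the matching cluster of 891 cells was led by the same gene, Gpha2, and 7 of the 8 SSPC-1 markers were detected in it, but its top 10 genes held the tendon marker Chad and no SSPC-1 marker. It is therefore called the Gpha2-led cluster. The study reports Angptl7 as specific to its stem/progenitor population SSPC-1. Here Angptl7 was among the top 10 genes of the tendon-like cluster in both libraries and not among those of the Gpha2-led clusters. How the clusters match the SSPC-1 of the study was not tested. The summed SSPC-1 markers were at 10528 CPM in the control cluster and 7642 CPM in the Piezo1 fl/fl cluster, the summed SSPC-2 markers at 1949 and 377 CPM, and the summed tendon markers at 14423 and 15715 CPM. The part of these marker shifts in the genotype differences below was not tested.

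The members together were most abundant in these Gpha2-led clusters. Their UMIs summed to 3309 CPM in the control SSPC-1-like cells (interval 3257 to 3361) and 3210 CPM in the Gpha2-led Piezo1 fl/fl cells (3156 to 3266). The control SSPC-2-like cells, which carry osteoblast genes, were at 918 CPM, the tendon-like cells at 791, the fibroblast-like cells at 1289 and the blood-like cells at 155. After each cell was thinned to 2500 UMIs, a control SSPC-1-like cell held UMIs of 3.43 members on average against 1.59 in an SSPC-2-like cell and 0.226 in a blood-like cell. Only 1.09% of the SSPC-1-like cells held none of the members, and 47.5% held 4 or more. The 14 chondrocyte-like control cells, too few to rank, were at 2379 CPM, and 50% of them held 4 or more. The Gdf10-led fibroblast-like cells were at 1647 CPM, and 18.3% of them held as many.

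H19, the noncoding RNA that also carries the microRNA miR-675, was at 743 CPM (718 to 768) in the control SSPC-1-like cells. The next level was 158 CPM in the Gdf10-led fibroblast-like cells, then 104 in the Pi16-led fibroblast-like cells, 85.8 in the mature osteoblast-like cells, 40.0 in the SSPC-2-like cells, 39.1 in the mural-like cells, 36.4 in the blood-like cells, 11.96 in the tendon-like cells, 10.5 in the lining-like cells and 7.80 in the endothelial-like cells. Neighbours in this order did not differ beyond counting error between the Pi16-led fibroblast-like and mature osteoblast-like cells, among the SSPC-2-like, mural-like and blood-like cells as successive pairs, or from the tendon-like cells downwards. Counting intervals treat UMIs of 1 cell as independent, so they are too narrow for a gene as uneven as H19. Of the 1164 H19 UMIs of the control fibroblast-like cells 1 cell held 215 and the next 113. The order of the Gdf10-led and Pi16-led cells may therefore rest on few cells. In 14 chondrocyte-like cells, too few to rank, H19 was at 567 CPM. The share of thinned SSPC-2-like control cells with an H19 UMI was 4.06% (2.74 to 5.78). That of blood-like cells, which had a median of 3765.5 UMIs against 5970, was 3.13% (1.51 to 5.69). By share of cells the control SSPC-2-like cells thus lay near the blood-like cells, whereas 26.1% of the SSPC-1-like cells had a UMI. Unthinned, the shares were 32.9%, 6.59% and 6.04% in the SSPC-1-like, SSPC-2-like and blood-like cells. The 212 H19 UMIs of the SSPC-2-like cells were uneven, with 46 and 33 in single cells and 10 or more in 6 cells. How much of this signal is background was not tested. Both mature arms of miR-675 lie in an H19 exon, and they are shown because a count of H19 is also a count of their host RNA. The libraries capture polyadenylated RNA and do not measure the mature microRNAs. The capitals mark the seeds, bases 2 to 8, which differ between the arms. The arms span 7:142577112-142577133 and 7:142577078-142577099 on the minus strand (RefSeq, GRCm38.p6).
mmu-miR-675-5p: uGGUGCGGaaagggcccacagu
mmu-miR-675-3p: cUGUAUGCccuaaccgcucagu

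Cdkn1c, which encodes the cyclin-dependent kinase inhibitor p57, was likewise highest in the control SSPC-1-like cells at 635 CPM (613 to 659). Endothelial-like cells followed at 203 CPM, then the Gdf10-led fibroblast-like cells at 151, tendon-like cells at 139, SSPC-2-like cells at 105, lining-like cells at 42.0, Pi16-led fibroblast-like cells at 40.2, mural-like cells at 36.1, blood-like cells at 21.4 and mature osteoblast-like cells at 10.96. The Gdf10-led fibroblast-like and tendon-like cells did not differ beyond counting error, nor did the lining-like, Pi16-led fibroblast-like and mural-like cells as successive pairs, nor the blood-like and mature osteoblast-like cells. Of the thinned SSPC-1-like cells 65.1% held a Cdkn1c UMI, against 22.4% of the SSPC-2-like and 4.39% of the blood-like cells. H19 and Cdkn1c therefore shared their highest type but not the rest of the order: H19 was near its lowest in the endothelial-like and tendon-like cells, where Cdkn1c was at 203 and 139 CPM. In 33 perineurial-like control cells Cdkn1c was at 378 CPM with H19 at 5.82 CPM, which was 1 UMI.

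**Figure D1:**
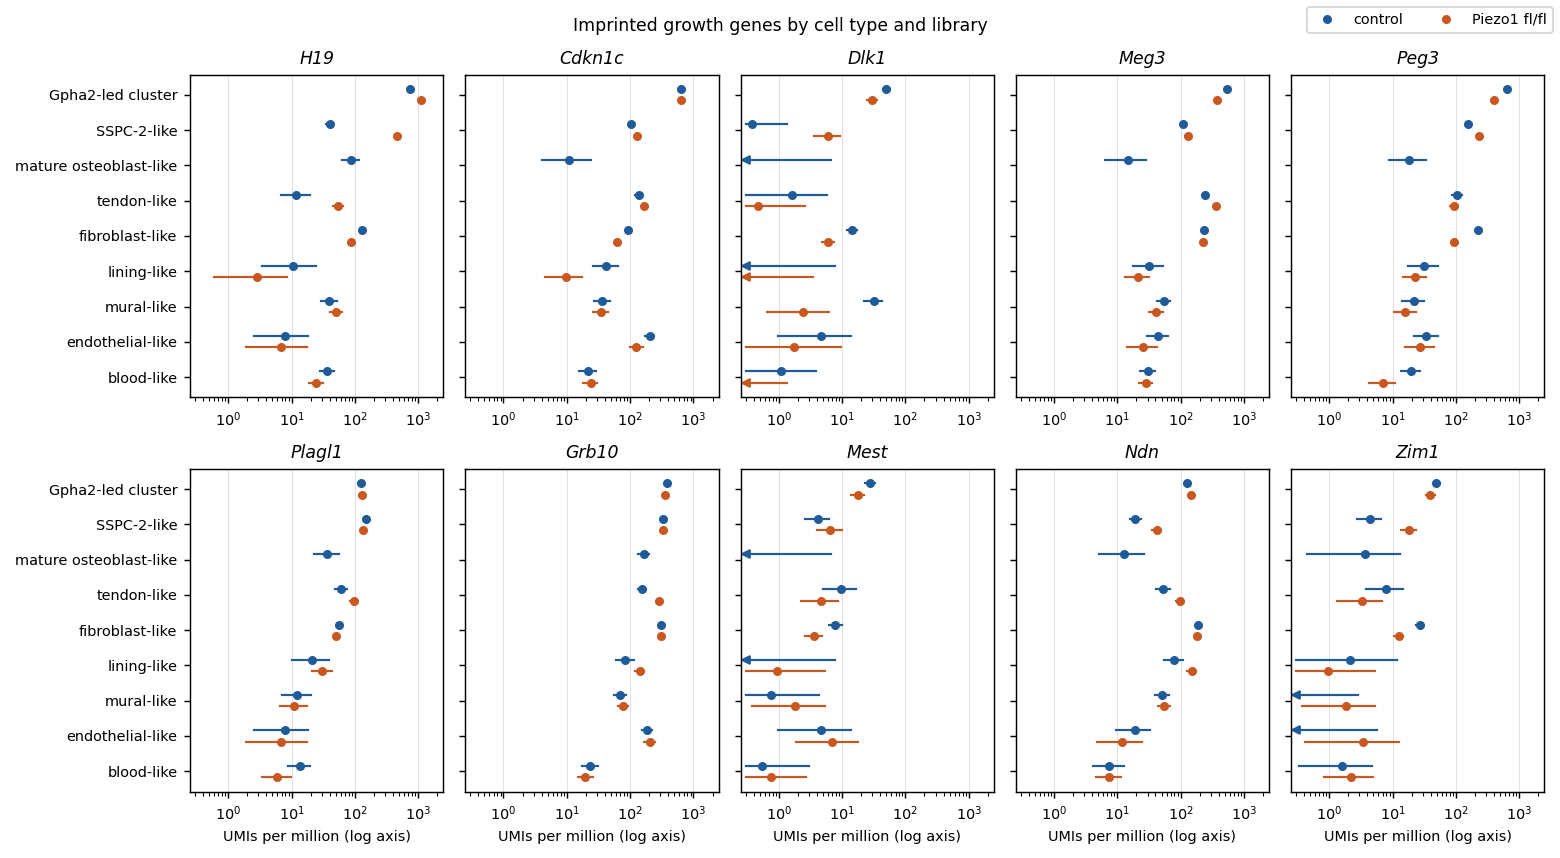
Each panel shows a member's CPM (log axis) in 9 cell types of the control library (blue) and, where the type was found, the Piezo1 fl/fl library (orange). Points are the type's summed level, lines are exact 95% Poisson intervals, and triangles mark a level of 0. H19 sits at 743 and 1096 CPM in the Gpha2-led clusters, Cdkn1c at 635 and 625 CPM, while Grb10 varies little among the SSPC and fibroblast-like cells.

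Setting the SSPC-1-like against the SSPC-2-like cells of the control library asks which members mark one periosteal progenitor cluster over the other. A gene is counted here when its CPM differed at least 2-fold, with 10 or more UMIs over both sides. Higher by this rule in the SSPC-1-like cells were 8 of 10 members, where 22.8% of all 12265 genes with enough UMIs differed 2-fold in either direction. The members' median log2 ratio was 2.65 and that of all genes 0.21. Since the members were chosen with earlier results of these data known, this count and those below are descriptions and show no enrichment. The H19 log2 ratio was 4.21 (4.01 to 4.42, 3505 against 212 UMIs). The SSPC-2-like level of 40.0 CPM stood beside 36.4 CPM in the blood-like cells. The tendon-like and endothelial-like cells were lower, at 11.96 and 7.80 CPM. Whether background limits the size of the H19 ratio was not tested. Zim1 had a log2 ratio of 3.50 (2.88 to 4.19), Mest, a hydrolase-family protein, with 2.73, Ndn, which encodes necdin, with 2.71, Cdkn1c with 2.60 (2.47 to 2.73), Meg3 with 2.33 and Peg3, a zinc-finger protein, with 2.03. Dlk1, a transmembrane protein related to Notch ligands, had 235 UMIs against 2, a log2 ratio of 7.04 with an interval of 5.17 to 10.1.

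Grb10 and Plagl1 did not share this pattern. Grb10, an adaptor that binds the insulin and IGF receptors, was at 377 CPM in the SSPC-1-like and 332 CPM in the SSPC-2-like cells (log2 ratio 0.18, interval 0.09 to 0.28). Plagl1, a zinc-finger transcription factor, was lower in the SSPC-1-like cells, at 123 against 151 CPM, a log2 ratio of -0.29 (-0.45 to -0.14). In the Piezo1 fl/fl library 7 of 10 members were at least 2-fold higher in the Gpha2-led than in the SSPC-2-like cells (18.4% of all genes in either direction), and Peg3 joined Grb10 and Plagl1 below that limit with a log2 ratio of 0.79 (0.67 to 0.92). The H19 ratio was 1.26 there (1.17 to 1.34) and the Cdkn1c ratio 2.27 (2.12 to 2.41).

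Against tendon-like cells all 10 members were at least 2-fold higher in the control SSPC-1-like cells (19% of all genes in either direction), with log2 ratios from 1.03 for Plagl1 to 5.96 for H19. In the Piezo1 fl/fl library 6 of 10 were (15.4% of all genes). Meg3 was not among them, since its 378 CPM in the Gpha2-led cells stood beside 366 CPM in the tendon-like cells, a log2 ratio of 0.05 (-0.08 to 0.17). Within the control fibroblast-like cells the Gdf10-led cluster exceeded the Pi16-led cluster at least 2-fold in 5 of 10 members (13.4% of all genes in either direction). These were Cdkn1c with a log2 ratio of 1.91, Peg3 with 2.29, Zim1 with 3.10, Mest with 3.88 and Dlk1 with 7.18 (130 against 1 UMI), whereas Meg3 (0.07), Plagl1 (0.08) and Grb10 (0.25) were nearly level.

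H19 was spread over cells unlike the other abundant members. In the control SSPC-1-like cluster 266 of 809 cells held any H19 UMI, the cell with the most held 168 and the next 127, and the 10% of cells with the most held 81.6% of the UMIs. In the Gpha2-led Piezo1 fl/fl cluster 378 of 891 cells held one, the highest 174 and the next 119, and the top 10% held 73.6%. After thinning, the variance of H19 over its mean was 21.7 for the control and 13.8 for the Piezo1 fl/fl cells, where a Poisson count would give a ratio near 1. The same ratio was 1.97 and 2.31 for Cdkn1c, 1.73 and 1.46 for Meg3, 2.51 and 1.94 for Peg3, and 1.303 and 1.56 for Grb10. Dlk1 was the other member with such a spread, with a ratio of 10.1 over 731 thinned control cells, 25 of which held a Dlk1 UMI, and 5.31 over 759 thinned Piezo1 fl/fl cells, 19 of which held one. Thinned SSPC-1-like cells with 10 or more UMIs made up 6.02% of all for H19, 0.821% for Peg3 and 0.137% for Cdkn1c, although the summed levels of the 3 genes lay close together. H19 was as uneven in the control fibroblast-like cells, where 151 of 1609 cells held all 1164 UMIs and 1 cell held 215.

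**Figure D2:**
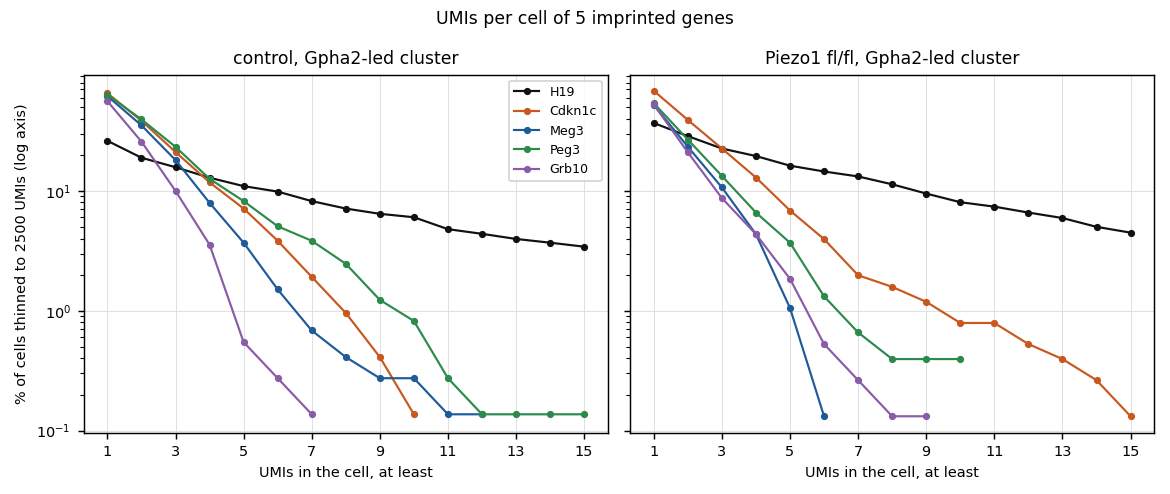
The share of cells (log axis) in the Gpha2-led cluster of each library that held at least the given number of UMIs of a gene, after thinning to 2500 UMIs. The H19 line starts below those of Cdkn1c, Meg3, Peg3 and Grb10 at 1 UMI, with 26.1% of control and 36.8% of Piezo1 fl/fl cells. It lies above them from 4 UMIs on.

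Cells of the Gpha2-led clusters with an H19 UMI were then set against those without one, after thinning. Cdkn1c was at 620 CPM in the 191 control cells with H19 and 597 CPM in the 540 without, a log2 ratio of 0.05 (-0.14 to 0.25), and in the Piezo1 fl/fl cluster its ratio was -0.05 (-0.22 to 0.12). Dlk1 had 79 UMIs in the control cells with H19 and 21 in those without, a log2 ratio of 3.41 (2.70 to 4.18), and a ratio of 2.43 (1.54 to 3.42) in the Piezo1 fl/fl cells. These Dlk1 UMIs come from few cells. Peg3 was also higher in cells with H19, by a log2 ratio of 0.57 (0.39 to 0.74) among the control and 0.32 (0.11 to 0.52) among the Piezo1 fl/fl cells. In the Piezo1 fl/fl cluster the intervals of Meg3 (0.25, 0.03 to 0.47), Ndn (0.40, 0.05 to 0.75) and Zim1 (0.78, 0.09 to 1.48) also lay above 0, while in the control cluster the intervals of these 3 genes included 0. The summed SSPC-1 markers differed by 0.03 (-0.02 to 0.07) in the control and 0.10 (0.05 to 0.15) in the Piezo1 fl/fl cluster, and the summed tendon markers were lower in the cells with H19 in both, by a log2 ratio of -0.15 (-0.19 to -0.11) and -0.17 (-0.21 to -0.14). The listed cell-cycle genes had 1 UMI in the 279 Piezo1 fl/fl cells with H19 and 12 in the 480 without, a log2 ratio of -2.80 (-8.22 to -0.05). In the control cluster they had 2 UMIs in the 191 cells with H19 and 3 in the 540 without, a log2 ratio of 0.91 (-2.67 to 4.04). These intervals treat UMIs of 1 cell as independent, so they are too narrow.

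Pairs of members were then counted in the same thinned cells and set against the product of the members' shares within the type. For H19 and Cdkn1c, both were seen in 119 control SSPC-1-like cells where that product gives 124, a ratio of 0.957 (0.793 to 1.14), and in 185 Gpha2-led Piezo1 fl/fl cells where it gives 190, a ratio of 0.972 (0.837 to 1.12). Over all retained cells the same pair stood at 1.76 (1.497 to 2.06) and 2.01 (1.77 to 2.27). The median over the 42 control pairs with a product of 5 or more cells was 1.05 in the SSPC-1-like cells and 1.08 over 41 pairs in the Gpha2-led Piezo1 fl/fl cells. H19 with Dlk1 gave the highest ratio in both, 1.99 (1.06 to 3.403) and 1.86 (0.99 to 3.18), from 13 cells each. In fibroblast-like cells H19 and Cdkn1c were found together more often than the product, with ratios of 1.85 (1.21 to 2.72) and 1.70 (1.12 to 2.48). The control fibroblast-like cells hold the Gdf10-led and Pi16-led clusters, whose summed levels of both genes differ.

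Peg3 and Zim1 lie 7.44 kb apart on the same strand, and of the pairs with a product of 5 or more fibroblast-like cells theirs had the highest ratio in both libraries. Both were found in 54 control fibroblast-like cells where the product gives 21.1, a ratio of 2.56 (1.92 to 3.34), and in 30 Piezo1 fl/fl cells where it gives 8.41, a ratio of 3.57 (2.41 to 5.09). In the SSPC-1-like cells the ratio was 1.33 (1.01 to 1.72), and in the Gpha2-led Piezo1 fl/fl cells 1.17 (0.82 to 1.61). The Gdf10-led and Pi16-led control clusters differ in both genes, as given above, and the part of that difference in the pairing was not tested. Zim1 was found in 13.1% of the control fibroblast-like cells with Peg3 and in 2.00% of those without. The promoters of this neighbouring pair are shown with each CpG, the dinucleotide at which imprinting methylation is placed, in capitals (RefSeq, GRCm38.p6, 250 bases before to 50 after the start, minus strand, at 7:6730370-6730669 and 7:6696383-6696682).
Peg3: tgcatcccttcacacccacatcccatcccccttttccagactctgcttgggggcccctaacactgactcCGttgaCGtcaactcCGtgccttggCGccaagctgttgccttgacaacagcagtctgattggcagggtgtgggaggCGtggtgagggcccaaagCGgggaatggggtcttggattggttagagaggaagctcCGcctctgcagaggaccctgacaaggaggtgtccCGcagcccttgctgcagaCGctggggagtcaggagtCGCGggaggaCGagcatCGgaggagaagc
Zim1: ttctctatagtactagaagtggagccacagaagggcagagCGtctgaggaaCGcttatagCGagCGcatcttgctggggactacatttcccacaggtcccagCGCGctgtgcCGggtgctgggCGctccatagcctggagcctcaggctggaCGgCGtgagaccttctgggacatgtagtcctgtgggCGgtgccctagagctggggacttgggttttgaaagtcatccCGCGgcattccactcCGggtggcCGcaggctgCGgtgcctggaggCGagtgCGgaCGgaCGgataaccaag
The Peg3 window holds 13 CpG and the Zim1 window 20, and 37.9% and 26.5% of the 32851 promoters of this length hold as many or more, over a median of 7. The letters GCCATNTT, searched on both strands, were in neither window and in 6.05% of all promoters. Methylation was not measured.

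**Figure D3:**
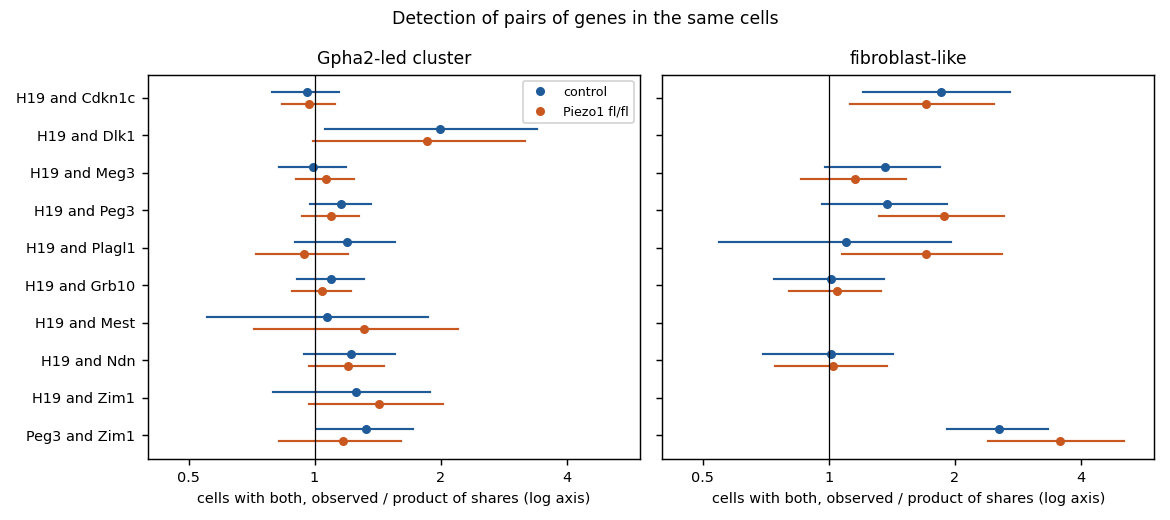
Cells holding both genes of a pair over the product of the genes' shares (log axis), in thinned cells of the Gpha2-led clusters and of the fibroblast-like cells, control in blue and Piezo1 fl/fl in orange, with 95% intervals. H19 and Cdkn1c sit at 0.957 and 0.972 in the Gpha2-led clusters, and Peg3 with Zim1 at 2.56 and 3.57 in the fibroblast-like cells. Pairs whose product is under 5 cells are left out.

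Other genes of the same imprinted domains were mostly scarce. Igf2, the paternally read growth factor gene 72.6 kb from H19, had 10 UMIs in the control SSPC-1-like cells (2.12 CPM, 1.02 to 3.897) and 3 in the Gpha2-led Piezo1 fl/fl cells, where H19 had 3505 and 4498. The protein-coding Gm49394 overlaps Igf2 on the same strand and Igf2os on the opposite strand, and both are in the gene list. How reads in these overlaps were counted is not given in the sources used here, so the Igf2 level may be too low. Dlk1 and Meg3, 77.7 kb apart, were unequal in reach, since Meg3 UMIs were in 613 of the 809 control SSPC-1-like cells and Dlk1 UMIs in 44. In the same domain, Mirg was at 19.1 and 16.8 CPM in the Gpha2-led clusters and Dio3, a thyroid hormone deiodinase gene, at 10.6 and 8.53 CPM. Near Cdkn1c, the noncoding Kcnq1ot1 was at 93.9 and 96.5 CPM in the Gpha2-led clusters against 27.4 and 34.3 CPM in the SSPC-2-like cells, and Phlda2 had 1 UMI in each Gpha2-led cluster. On the opposite strand, Mest overlaps Copg2 and the antisense gene Gm44296, Cdkn1c the antisense gene Gm44732 and Ndn the noncoding Gm32061, and whether strand was used in counting is not given in the sources used here, so reads of these partners may not be told apart.

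The comparison of the Piezo1 fl/fl with the control library asks whether loss of Piezo1 goes with a change in the members within a type. In the Gpha2-led clusters 0 of 10 members differed at least 2-fold, where 9.43% of all genes did. H19 was at 743 CPM in the control and 1096 CPM in the Piezo1 fl/fl cells, a log2 ratio of 0.56 (0.50 to 0.63). Cdkn1c was at 635 and 625 CPM, a log2 ratio of -0.02 (-0.10 to 0.05). Dlk1 (-0.76), Peg3 (-0.67), Mest (-0.63), Meg3 (-0.53) and Zim1 (-0.32) had lower levels in the Piezo1 fl/fl cells with intervals below 0, Ndn a slightly higher one (0.19, 0.02 to 0.35), and the intervals of Plagl1 and Grb10 included 0.

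In the SSPC-2-like cells H19 was at 40.0 CPM in the control and 458 CPM in the Piezo1 fl/fl library, from 212 and 1551 UMIs, a log2 ratio of 3.52 (3.31 to 3.73). With coarser clusters (resolution 0.2 in place of 0.4) this ratio was 1.76, and with finer ones (resolution 0.8) 5.47, but the cells compared change. They were 808 control and 384 Piezo1 fl/fl cells at 0.2, 504 and 572 at 0.8, and 744 and 552 at 0.4. Higher at least 2-fold in the Piezo1 fl/fl cells were 4 of 10 members (9.13% of all genes in either direction), namely H19, Dlk1 with 20 UMIs against 2, Zim1 with a log2 ratio of 2.05 (1.34 to 2.81) and Ndn with 1.11 (0.737 to 1.496). Cdkn1c had a log2 ratio of 0.31 (0.13 to 0.49) and Grb10 of 0.01 (-0.10 to 0.12). Of the 20 Dlk1 UMIs 15 came from 1 cell. In these control and Piezo1 fl/fl cells the summed SSPC-1 markers were at 1669 and 2569 CPM and the SSPC-2 markers at 24330.5 and 17601 CPM. The mature osteoblast markers were at 4278 and 8630.5 CPM, and only the control library had a mature osteoblast-like cluster of its own. A subset of the Piezo1 fl/fl cells, described below, held most of their H19 UMIs and had more SSPC-1 than SSPC-2 markers. The ratios therefore compare clusters of unlike makeup. The part of these marker shifts and of this subset in the ratios was not tested.

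**Figure D4:**
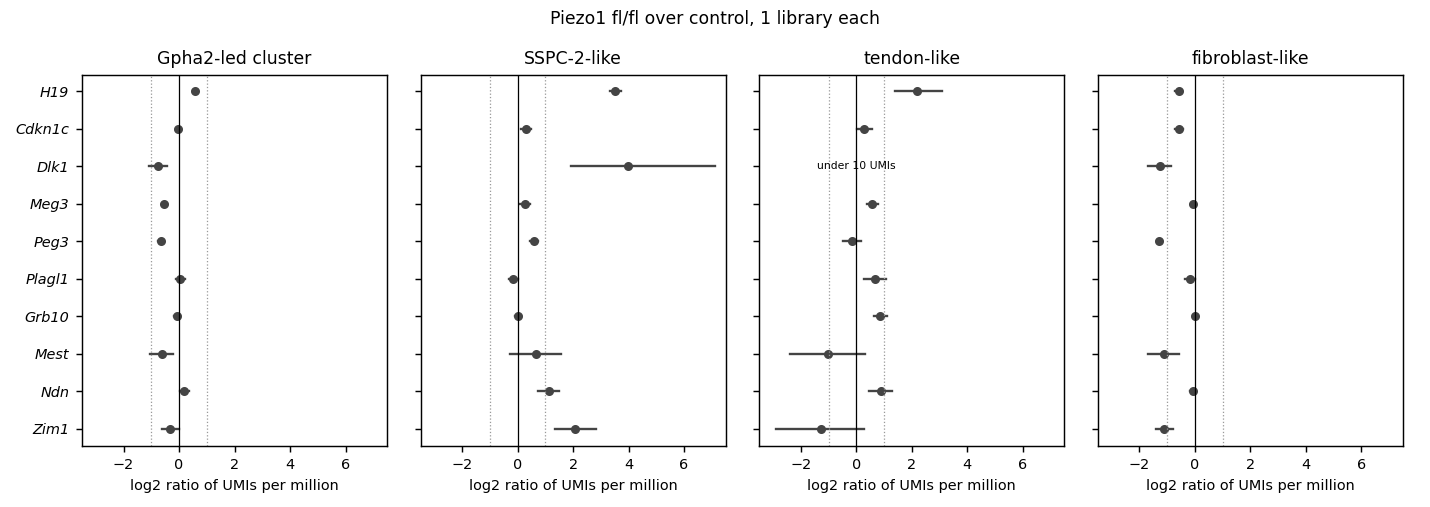
Log2 ratio of CPM, Piezo1 fl/fl over control, for each member in 4 types, with 95% counting intervals as lines and dotted lines at a 2-fold difference. H19 stands at 3.52 in the SSPC-2-like cells and 0.56 in the Gpha2-led clusters, while the points of Cdkn1c and Grb10 lie within the dotted lines in all 4 types. The SSPC-2-like clusters of the libraries differ in makeup.

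Most H19 UMIs of the SSPC-2-like cells of the Piezo1 fl/fl library came from a subset of them. At the finer clustering these 552 cells fell into 380 cells led by Mmp13 and Prss35 and 172 cells led by Grem1, a BMP antagonist gene, and Kcnj2. H19 was at 153 CPM (138 to 170) in the 380 cells and at 1307 CPM (1234 to 1385) in the 172 cells, which held 1169 of the 1551 UMIs, while all 744 control SSPC-2-like cells stood at 40.0 CPM (34.8 to 45.8). In the Grem1-led cells the summed SSPC-1 markers were at 5898 CPM and the SSPC-2 markers at 5131 CPM, whereas the Mmp13-led cells had 1374 and 22079 CPM. Peg3 (512 against 128 CPM), Meg3 (314 against 63.5) and Cdkn1c (275 against 77.9) were also higher in the Grem1-led cells. The control SSPC-2-like cells split instead into 504 cells with H19 at 10.95 CPM and 237 cells led by Dmp1, an osteocyte and osteoblast gene, with H19 at 129 CPM. No Grem1-led cluster formed in the control library, and Grem1 was at 108 CPM in its 795 finer Gpha2-led cells against 2.55 CPM in the 852 of the Piezo1 fl/fl library. The part of this difference between the clusters in the H19 ratio was not tested.

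The SSPC-1-like or Gpha2-led, SSPC-2-like and mature osteoblast-like clusters were also counted together. Over these 1613 control and 1443 Piezo1 fl/fl cells H19 was at 356 and 808 CPM, a log2 ratio of 1.18 (1.12 to 1.24), and it was the only member at least 2-fold different (8.13% of all genes in either direction). Ndn followed with 0.55 (0.40 to 0.70), Zim1 with 0.29 (0.03 to 0.56) and Cdkn1c with 0.25 (0.18 to 0.32), and the other 6 members lay between -0.25 for Dlk1 and 0.01 for Grb10. The share of Gpha2-led cells in the joined clusters enters these ratios, with 809 of 1613 for the control and 891 of 1443 for the Piezo1 fl/fl library.

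**Figure D5:**
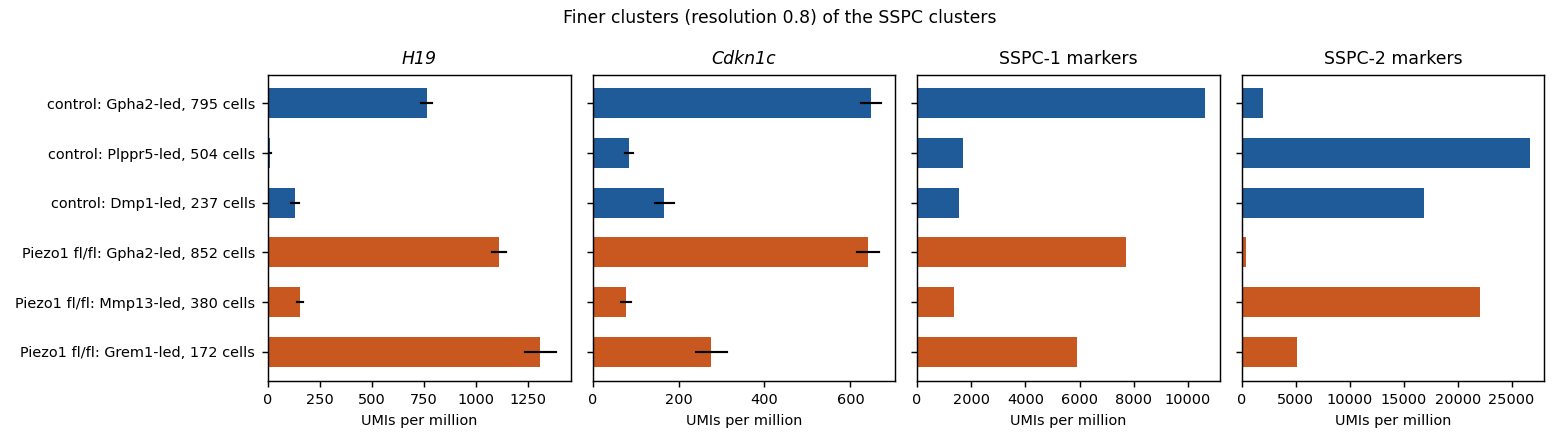
H19, Cdkn1c and the summed SSPC-1 and SSPC-2 markers, in CPM, in the finer clusters of at least 100 cells within the SSPC-1-like or Gpha2-led and SSPC-2-like cells of the control (blue) and Piezo1 fl/fl (orange) libraries. Black lines are 95% Poisson intervals. The 172 Grem1-led Piezo1 fl/fl cells carry H19 at 1307 CPM with SSPC-1 markers at 5898 CPM.

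Outside the SSPC clusters the members took several directions. In the fibroblast-like cells 4 of 10 members were at least 2-fold lower in the Piezo1 fl/fl library (7.52% of all genes in either direction). These were Peg3, with 227 CPM in the control and 93.6 CPM in the Piezo1 fl/fl cells and a log2 ratio of -1.28 (-1.38 to -1.17), Dlk1 (-1.27), Mest (-1.13) and Zim1 (-1.10). The same 4 genes were among the 5 that exceeded 2-fold in the Gdf10-led over the Pi16-led control cells. The fibroblast-like clusters were not matched across the libraries, and the summed Gdf10 fibroblast markers were at 3863 CPM over the control and 3132 CPM over the Piezo1 fl/fl fibroblast-like cells. Of the 2074 Piezo1 fl/fl fibroblast-like cells 386 formed a cluster led by Cfd, Pck1 and Adipoq, with 3 of 7 Pi16 fibroblast markers detected. No adipocyte marker list was used, and no control cluster had these genes among its top 10. The part of such marker and cluster shifts in the difference was not tested. Meg3, Grb10 and Ndn had intervals that included 0.

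In the tendon-like cells 3 of 9 members with enough UMIs differed at least 2-fold (12.9% of all genes). H19 was higher in the Piezo1 fl/fl cells, at 54.8 against 11.96 CPM, a log2 ratio of 2.20 (1.41 to 3.08), with 42 of its 116 UMIs in 1 cell, and Mest and Zim1 were lower with intervals that included 0. Grb10 was at 283 against 156 CPM there, a log2 ratio of 0.86 (0.62 to 1.10), and Meg3 at 366 against 246 CPM, a log2 ratio of 0.57 (0.38 to 0.77). Of 8 members in the mural-like cells only Dlk1 differed that much (6.95% of all genes), with 41 UMIs in 9 control cells and 4 UMIs in the Piezo1 fl/fl cells. In the endothelial-like cells 0 of 5 did (11.5% of all genes), and Cdkn1c stood at 203 CPM in the control and 126 CPM in the Piezo1 fl/fl cells, a log2 ratio of -0.69 (-1.12 to -0.26).

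Among the 6 other cyclin-dependent kinase inhibitors listed, none shared the Cdkn1c difference between the 2 control SSPC clusters. Cdkn1b, which encodes p27, came nearest with 242 against 125 CPM, a log2 ratio of 0.95 (0.81 to 1.09), Cdkn1a, which encodes p21, was at 117 against 105 CPM, and Cdkn2a and Cdkn2b were at least 2-fold lower. In the Piezo1 fl/fl library Cdkn1b had a log2 ratio of 1.16 (0.98 to 1.34), from 230 CPM in the Gpha2-led and 103 CPM in the SSPC-2-like cluster, and Cdkn2a, Cdkn2b and Cdkn2c were at least 2-fold lower, so 4 of the 6 differed that much where 18.4% of all genes did. Cells with a UMI of the 6 listed cell-cycle genes were few, 17 of 809 SSPC-1-like control cells, and Cdkn1c was found in 76.5% of them and 80.3% of the others, a difference that 17 cells cannot resolve. Of 36 other imprinted genes, 27 had enough UMIs in the same comparison, and 11 were at least 2-fold higher and 3 lower in the SSPC-1-like cells, with a median log2 ratio of 0.72, where 22.8% of all genes differed that much in either direction and their median was 0.21. Zdbf2 had 60 UMIs against 0 and the splicing factor gene Zrsr1 was at 79.5 against 25.1 CPM. Between the Gpha2-led clusters of the libraries 5 of 27 differed at least 2-fold (9.43% of all genes), among them Igf2r, which encodes the receptor that clears IGF2, at 298 CPM in the control and 127 CPM in the Piezo1 fl/fl cells, a log2 ratio of -1.23 (-1.38 to -1.09).

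The genes most like each member were ranked by Pearson's r of log2 CPM over the 10 control types with at least 50 cells, among 6049 genes, and r was then computed in the 8 types of the Piezo1 fl/fl library. Types of 1 library share its depth and processing, so these are descriptions. For Peg3 the first was Penk, which encodes an opioid precursor, with r of 0.97 and 0.83, followed by Itm2a with 0.94 and 0.97. For Meg3 they were Nox4 (0.95 and 0.97) and Ogn, an extracellular matrix proteoglycan gene (0.94 and 0.98), for Ndn Igfbp5 (0.97 and 0.94) and for Zim1 Esr1, the estrogen receptor alpha gene (0.94 and 0.80). H19 had no equally close gene, with Gpc3, a glypican gene, at 0.83 and 0.81. For Cdkn1c, Map4k5 stood at 0.90 and 0.72, and for Grb10, Angptl4 at 0.98 and 0.66. The first for Plagl1 was Thoc7, at 0.97 in the control but 0.46 in the Piezo1 fl/fl types.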

How the data were processed

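Periosteal cells were captured in microwells (BD Rhapsody, whole transcriptome), and the authors deposited 1 table of UMI counts per library, raw and per gene and barcode. The submitters' processing notes name fastp, UMI-tools, STAR and Seurat 4.0.3. The genome build, annotation and strand setting behind the counts are not given in the sources used here. Gene positions are from GENCODE vM21 on GRCm38, in which 31107 of the 31253 gene IDs and all 10 members were found.

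The libraries held 6118 barcodes with 28030299 UMIs (control) and 7469 with 32337308 UMIs (Piezo1 fl/fl). Following the study's methods, the limits were 1000 to 5000 genes and less than 25% of UMIs from mitochondrial genes, and Scrublet in scanpy 1.11.5 called 46 of 5551 and 67 of 6784 scored barcodes as doublets (0.829% and 0.988%), which were removed. Each library was clustered alone in Seurat 5.3.0 (R 4.3.3) with 2000 variable genes less the 30 or 25 listed genes among them, 20 components and resolution 0.4. Clusters were named by their highest marker list with at least 3 detected markers, and left unnamed where the top 10 genes held more markers of another class than of their own. Of the named clusters, 1 blood-like control cluster and 3 fibroblast-like and 2 blood-like Piezo1 fl/fl clusters had none of the leading list's markers among their top 10 genes. Cells with 5 of 8 chondrocyte markers were set apart. The members, lists and markers were chosen with earlier results of these data known.

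A level is a gene's UMIs summed over a type, per 1000000 UMIs of the type (CPM), with an exact Poisson 95% interval. Ratios of levels have conditional binomial intervals, shares Clopper-Pearson intervals, and a list's median log2 ratio has 0.5 UMI added to each side. All cover counting error only, since cells are not replicates and there was 1 library per genotype, so no test was run. Ratios were counted with 10 or more UMIs over both sides. For shares, spread and pairs, cells were thinned to 2500 UMIs and shallower cells left out (78 of 809 control SSPC-1-like cells and 132 of 891 Gpha2-led Piezo1 fl/fl cells). Genes are named as members, as listed genes, or as the 3 most alike with at least 50 CPM in some type. The Grem1-led cells and the joined clusters were singled out after their values were seen. The ratio intervals were tested on simulated counts.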

Additional observations from a re-analysis of the deposited data

Results flagged for a closer look

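For 7 members the Piezo1 fl/fl over control log2 ratio lay above 0 in one type and below 0 in another, with both counting intervals clear of 0. Over the same 6 types this held for 16% of the 8775 genes with at least as many UMIs as the scarcest member (397), and intervals narrow as UMIs rise, so abundant genes meet it more easily. With 1 library per genotype these differences between types were not tested. The SSPC-2-like cells of the Piezo1 fl/fl library include the Grem1-led cells, and the fibroblast-like clusters were not matched across the libraries. Ratios in these types therefore compare cells of unlike makeup. H19 stood at 3.52 in the SSPC-2-like and -0.59 in the fibroblast-like cells, Peg3 at 0.57 and -1.28, and Zim1 at 2.05 and -1.10 in the same types. Dlk1 was at 3.97 in the SSPC-2-like and -3.69 in the mural-like cells, both from few UMIs. Cdkn1c was at 0.31 in the SSPC-2-like and -0.69 in the endothelial-like cells. Meg3 was at 0.57 in the tendon-like and -0.53 in the Gpha2-led cells, and Plagl1 at 0.66 in the tendon-like and -0.17 in the fibroblast-like cells.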

How the results depend on the processing

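Each ratio was recomputed under 12 planned and 4 added alternatives, the added ones chosen after seeing the data. Of 835 alternative log2 ratios 798 kept their direction and 716 stayed within the counting interval. Between the control SSPC clusters the H19 ratio (4.21) was 3.93 with 500 to 6000 genes per cell, 4.66 with a mitochondrial limit of 10%, 6.12 at resolution 0.8, 3.96 with doublets kept, 3.78 with each cell weighted equally and 4.50 without the cell holding the most H19. The H19 ratio of Piezo1 fl/fl over control in the Gpha2-led clusters (0.56) was 0.42, 0.48, 0.50 and 0.43 under the gene, mitochondrial, doublet and weighting alternatives and 0.65 with each cell typed alone, and that in the SSPC-2-like cells (3.52) was 3.28, 3.87, 3.30 and 3.27 under the same 4, 1.76 at resolution 0.2, 5.47 at resolution 0.8 and 3.77 without the top cell. Over the joined clusters the H19 ratio (1.18) was 1.02 with cells weighted equally and 1.53 with each cell typed alone, and between 1.13 and 1.21 otherwise. The Cdkn1c ratio between the control SSPC clusters (2.60) was 2.74 at resolution 0.2, 2.93 at 0.8 and 2.39 with equal weights. At other resolutions the ratios compare other sets of cells, with 744 control SSPC-2-like cells at 0.4, 808 at 0.2 and 504 at 0.8. Typing each cell alone brought 2 members past 2-fold between the cells typed SSPC-1, which were 293 control and 342 Piezo1 fl/fl cells. The share of all genes past 2-fold under this typing is not given here, so this count cannot be read against one. Under this typing 44.6% and 48.8% of cells had a second marker list within 2-fold of the first. In the tendon-like cells the genotype ratio turned positive for Dlk1 (3.64 at resolution 0.2 and 0.69 at 0.8), Mest (0.54 at 0.2) and Zim1 (1.87 at 0.2 and 0.0236 typed alone). The background share of 22.8% was 36.1% with no minimum beyond 1 UMI. For resolution 0.2 the Piezo1 fl/fl library had no Gpha2-led cluster of its own, so its ratios have no value, and the causes of these shifts were not tested. No paired analysis was possible because the labels give no shared replicate numbers and each genotype has 1 library, and no replicate could be left out.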

Other observations

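In the SSPC-2-like cells of the Piezo1 fl/fl library, thinned to 2500 UMIs, the 97 cells with an H19 UMI had the SSPC-1 markers at 5056 CPM and the SSPC-2 markers at 8495 CPM, whereas the 410 cells without had 2274 and 18356 CPM. Peg3 was higher in the cells with H19 by a log2 ratio of 1.35 (1.00 to 1.69), Plagl1 by 1.00 (0.54 to 1.45) and Cdkn1c by 0.85 (0.36 to 1.33). In the 29 control SSPC-2-like cells with H19, Plagl1 was at 414 CPM against 153 CPM in the 685 without, a log2 ratio of 1.44 (0.84 to 1.98).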
